A study of Mus musculus with 8 samples.

Results

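Potassium channel subunit genes were followed in primary cultures of cerebellar neurons treated with T3, the active thyroid hormone. Members were the genes whose only symbol in the platform's probe-to-gene annotation starts with Kcn, with 1 gene of the inward rectifier family left out of the rule, and there were 83 of them among 18193 genes with a symbol of their own. The T3 cultures received the hormone at 0.1 µM and were collected after 6, 16, 24 or 48 h, and the untreated cultures received no added T3 for the same hours. All cultures were prepared from wild-type mouse pups, pooled according to the methods, and were kept for 48 h in serum-free medium before treatment. By the methods the medium held B27 supplement, and its hormone content is not stated. The labels give an age of P4 to P7 and the methods an age of P1 to P4. Each treatment and time point has 1 array, so 8 arrays form 4 pairs, and the methods state that both cultures of a pair came from 1 batch of cells.

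Potassium channels let potassium leave the cell and thereby hold the resting potential and end the action potential. Voltage-gated channels open on depolarization, and their pore subunits assemble as tetramers with accessory subunits that alter gating and trafficking. Inward rectifiers pass current best near rest and include channels opened by G proteins or closed by ATP. Two-pore channels carry the background leak, and calcium-activated channels couple calcium entry to repolarization. Cerebellar granule neurons are known for their A-type current, carried by channels of the Kcnd family, and for a strong leak current that appears as they mature.

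Signals are linear intensities per probe-set (a group of short probes against 1 transcript), which the authors brought to an equal mean on all arrays (100 after trimming), and each gene is given by its brightest probe-set. A gene was taken as expressed where its mean log2 signal over the 8 arrays, with signals below 1 set to 1, reached the 60th percentile of all probe-sets, a signal of 31.0. The signal of one gene is not set against that of another, since probe-sets differ in their response.

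The arrays differed in the cells they sampled, and these values stand beside all results that follow. The summed signal of 4 general neuron markers (Tubb3, Map2, Snap25, Syt1) was 2893.1, 1051.1, 2098.7 and 458.9 on the T3 arrays at 6, 16, 24 and 48 h, and 3009.0, 878.7, 4038.4 and 310.2 on the untreated arrays. The summed signal of 8 vascular and meningeal markers was 872.7 on the T3 array and 1304.0 on the untreated array at 6 h, and 8045.7 and 8276.9 at 48 h. This rise lay mainly in Col1a1, Col1a2, Dcn, Lum and Pdgfrb, and Kdr rose less. Cldn5 did not share it, with 146.0 with T3 and 126.9 untreated at 6 h and 133.4 and 128.3 at 48 h. Pecam1 stayed below the threshold on all arrays. The untreated 24 h array stood apart: the astrocyte and Bergmann glia sum was 4652.7 with T3 and 8702.7 untreated, the GABAergic and Purkinje sum 296.5 and 1225.2, and the oligodendrocyte lineage sum 738.1 and 1847.9. The part of these differences in the results on channels was not tested. In such mixed cultures fewer cells of a type and less RNA per cell cannot be told apart.

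Of the 83 members, 21 (25.3%) reached the filter, against 56% of all genes with 1 symbol. Voltage-gated channels made up most of them. Of 31 voltage-gated pore subunits, 10 reached it: Kcnd3, Kcnd2, Kcnc1, Kcns2, Kcnh3, Kcna2, Kcnq5, Kcna5, Kcna1 and Kcnh2. Of 12 accessory subunits, 4 did (Kcne2, Kcne4, Kcnip3 and Kcnab1). The other classes had few. The inward rectifiers Kcnj3 and Kcnj11 were 2 of 14 members, the two-pore channels Kcnk1 and Kcnk2 were 2 of 12, and in the calcium-activated class Kcnmb4 and Kcnt2 were 2 of 11. Of 3 members that encode no channel subunit, the antisense RNA Kcnq1ot1 reached the filter. On all 8 arrays the threshold was met by Kcnd3, Kcnc1, Kcnk1, Kcnk2 and Kcnmb4, and 51 members met it on no array. The mean signals just inside the filter were 34.2 for Kcnip3, 33.1 for Kcnab1 and 31.1 for Kcnh2, and those just outside were 27.0 for Kcnk5, 26.4 for Kcnj10 and 25.8 for Kcne1l.

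**Figure D1:**
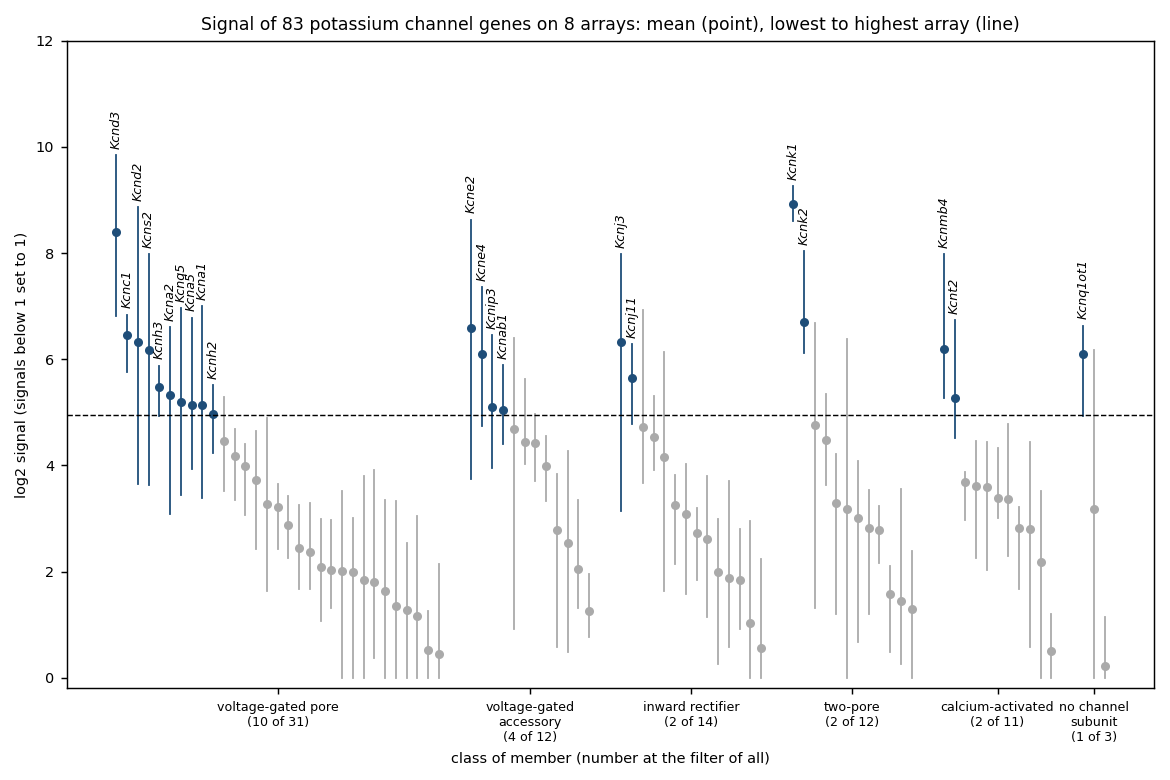
Mean log2 signal (points) and the range from the lowest to the highest of 8 arrays (lines) for the 83 members, grouped by class on the x axis and ordered by mean within a class. Members at the filter (21, dark blue and named) lie above the dashed line at log2 4.95, and the other members are grey. Two-pore Kcnk1 has the narrowest range of the named members, while Kcnd2, Kcne2 and Kcnj3 span several log2 units.

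The promoters of 4 members are shown as examples of 2 opposite orders of the arrays, held by 7 and by 3 members (values below). Kcnd2, an A-type pore subunit, and Kcnmb4, the neuronal beta subunit of large-conductance calcium-activated channels, were higher at 6 and 24 h. Kcne4, a single-span accessory subunit, and Kcna5, a delayed rectifier pore subunit, were higher at 16 and 48 h. The 250 bases before the annotated start are written 5′ to 3′ along the gene, from RefSeq on GRCm38.p6, with each CG dinucleotide in capitals.
Kcnd2 (chr6:21215096-21215345, plus strand): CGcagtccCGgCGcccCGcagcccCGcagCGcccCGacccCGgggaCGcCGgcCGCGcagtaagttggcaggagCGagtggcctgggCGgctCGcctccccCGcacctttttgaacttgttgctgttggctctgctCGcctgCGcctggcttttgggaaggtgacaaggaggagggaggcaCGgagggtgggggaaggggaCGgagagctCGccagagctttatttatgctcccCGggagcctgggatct
Kcnmb4 (chr10:116473524-116473773, minus strand): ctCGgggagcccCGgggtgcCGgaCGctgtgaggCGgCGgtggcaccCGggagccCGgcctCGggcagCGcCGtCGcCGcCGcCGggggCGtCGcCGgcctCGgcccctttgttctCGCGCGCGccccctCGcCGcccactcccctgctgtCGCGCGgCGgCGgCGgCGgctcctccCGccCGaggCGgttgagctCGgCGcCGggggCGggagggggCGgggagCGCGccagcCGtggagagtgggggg
Kcne4 (chr1:78816661-78816910, plus strand): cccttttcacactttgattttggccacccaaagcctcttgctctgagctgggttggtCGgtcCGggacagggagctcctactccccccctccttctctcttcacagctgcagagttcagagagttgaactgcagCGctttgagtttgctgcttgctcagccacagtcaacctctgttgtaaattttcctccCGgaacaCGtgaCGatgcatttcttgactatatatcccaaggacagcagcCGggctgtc
Kcna5 (chr6:126535556-126535805, minus strand): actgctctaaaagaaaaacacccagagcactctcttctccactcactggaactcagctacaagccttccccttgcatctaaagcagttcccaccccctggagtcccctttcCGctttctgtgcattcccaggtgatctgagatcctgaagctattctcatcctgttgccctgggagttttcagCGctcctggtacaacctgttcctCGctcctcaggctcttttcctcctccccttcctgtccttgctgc
CG dinucleotides numbered 22 in the Kcnd2 window and 43 in the Kcnmb4 window, against 7 in the Kcne4 window and 3 in the Kcna5 window. The median over the 32851 promoters of the table was 6.0, and 85.2% of them held fewer than Kcnd2, 99.3% fewer than Kcnmb4, 53.7% fewer than Kcne4 and 29.0% fewer than Kcna5. Over the members at the filter, the counts overlapped between the orders: 10 windows of 6 genes higher at 6 and 24 h held 2 to 43 CG dinucleotides (median 16.0), and 4 windows of 3 genes higher at 16 and 48 h held 1 to 9 (median 5.0). The Kcnj3 window, of the first order, held 7, as many as that of Kcne4. In neither order by their brightest probe-sets were 8 genes, whose 12 windows held 0 to 30 (median 5.5). The count of 30 was that of Kcnc1, which had the first order by another probe-set at the filter. A link between these counts and the orders was not tested. The half-site AGGTCA, the hexamer that thyroid hormone receptors bind, was searched on both strands in 300-base windows that also take in 50 bases after the start. It was found in 0 of 26 windows of the 17 members at the filter that are in the table, in 5.68% of 88 windows of 63 members, and in 16.3% of all windows. Median GC was 57.8% in the windows of members at the filter and 52.7% in all windows. The sites that the paper found bound by the receptor near Dbp, Gbp3, Hr, Klf9 and Igsf3 lie outside windows of this reach. These shares therefore cannot show whether members have receptor sites farther from the start, and their difference was not tested.

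Over the 4 pairs, no member passed the test for a difference between T3 and untreated cultures. With limma, the time point as a block and Benjamini-Hochberg adjustment, 0 of 21 members were called, as were 0 of 18015 probe-sets (0%). At an unadjusted p under 0.05 there were 2 members, and 985 probe-sets (5.47%). The median difference of the members was 0.01 on the log2 scale, the same as over all kept probe-sets. Leaving out any pair still gave 0 members called.

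The most even T3 difference belonged to Kcnip3, a calcium-binding accessory subunit of Kcnd channels that is also known as a transcriptional repressor. Its signals were 87.7, 38.5, 38.0 and 22.9 with T3 at 6, 16, 24 and 48 h, and 60.5, 26.5, 25.9 and 15.4 in untreated cultures. It was higher with T3 in 4 of 4 pairs, by 0.54 to 0.57 on the log2 scale, although the T3 and untreated values overlapped across time points. Only 4 of the 8 arrays met the threshold. With 32 added to every signal the differences were smaller and less even, at 0.37, 0.27, 0.27 and 0.21. The fitted difference was 0.55 with an SE of 0.16 (limma adjusted p = 0.815 over all probe-sets), the smallest unadjusted p among the members. An exact two-sided sign-flip test over the 4 pairs gave p = 0.125, the smallest this design allows. The other probe-set of Kcnip3 lay below the filter and differed by 1.44, 0.06, 1.71 and -0.18. Among the 21 members at the filter, Kcnip3 and Kcna5 were higher with T3 at every time point (8.25% of all kept probe-sets were) and 0 were lower at every time point (6.82%).

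Kcns2, a modifier subunit that is silent alone and alters Kcnb channels, had signals of 236.8, 85.2, 107.9 and 23.2 with T3 and 251.7, 70.5, 66.0 and 12.4 untreated. T3 lay below untreated at 6 h and above it at the other times, with a fitted difference of 0.45 (SE 0.19), the other member with an unadjusted p under 0.05 (limma adjusted p = 0.815; exact sign-flip p = 0.25). Kcne4 followed, with signals of 38.4, 104.2, 62.0 and 164.1 with T3 and 42.3, 85.0, 26.6 and 119.8 untreated. Its fitted difference was 0.46 (SE 0.22, limma adjusted p = 0.815).

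The T3 effect was also tested for a change with the hours. None of the 21 members was called in limma (0 of 18015 probe-sets as well, 0%), and 1 member had an unadjusted p under 0.05, against 309 probe-sets (1.72%). That member was Kcnj3, a pore subunit of the G protein-gated inward rectifier. Its signals were 181.0, 57.3, 252.4 and 29.6 with T3, and 219.6, 47.8, 232.0 and 8.8 untreated. The 2 treatments lay close at 6, 16 and 24 h and apart at 48 h, where the difference was 1.75, and the slope of the difference was 0.61 per doubling of the hours (limma adjusted p = 1.0). With 32 added to every signal the difference at 48 h was 0.59. The other probe-sets of Kcnj3, all below the filter, differed at 48 h by 0.44, 2.3 and -1.35. Next in p were Kcns2, with a slope of the difference of 0.35, and Kcnc1, with -0.22. Kcnc1 encodes a pore subunit of fast-spiking neurons, and its signals of 114.6, 106.3, 82.1 and 54.4 with T3 overlapped those of 85.8, 107.7, 110.0 and 60.2 untreated. Other probe-sets of Kcnc1 at the filter had slopes of the difference of the opposite sign, 0.06 and 0.51.

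At a single time point 1 array is set against 1 array, and a 2-fold difference has no test. At 6 h 0 of 21 members differed by over 2-fold (of all kept probe-sets 0.527% were higher with T3 and 0.328% lower). At 16 h 0 were higher (0.433%) and 1 lower (0.305%): Kcna1, an axonal delayed rectifier, with 10.4 with T3 and 25.0 untreated. Both signals lay below the threshold, and the difference of -1.27 on the log2 scale was -0.43 with 32 added to every signal. The other probe-sets of Kcna1, all below the filter, differed at 16 h by -0.64, -0.44 and 0.58. Most differences over 2-fold fell at 24 h, where 3 members were higher with T3 (3.67%) and 6 lower (5.16%). At 48 h 2 were higher (0.833%) and 0 lower (0.344%). These 2 were Kcnj3 and Kcna2, whose signals at 48 h were 17.7 with T3 and 8.5 untreated. Both members were below the threshold of 31.0 on both 48 h arrays.

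The lower members at 24 h came from 4 classes. Kcnmb4 differed most, by -2.30, with signals of 131.5, 43.5, 51.2 and 39.4 on the T3 arrays and 155.8, 48.5, 251.9 and 38.4 on the untreated arrays. Both treatments were close at 6, 16 and 48 h, and the untreated 24 h array was the highest of the 8. The pore subunit that it joins, Kcnma1, stayed below the threshold on every array, with 14.2, 14.5, 20.1 and 13.2 with T3 and 16.9, 5.4, 22.0 and 4.8 untreated. The transcript Kcnmb4os2, named for the strand opposite Kcnmb4 and picked out after its values were seen, had 6.4 with T3 and 72.3 untreated at 24 h and stayed at or below 30.9 elsewhere.

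Both A-type pore subunits were lower with T3 at 24 h. Kcnd3 had 714.5, 286.4, 268.3 and 113.2 with T3 and 920.9, 277.5, 874.7 and 124.5 untreated, a difference at 24 h of -1.70. Kcnd2, the pore subunit typical of granule neurons, had 172.3, 43.2, 224.0 and 19.8 with T3 and 231.7, 38.5, 465.9 and 12.6 untreated, a difference at 24 h of -1.06. The arrays of 6 and 24 h were the high ones of Kcnd2 under both treatments, whereas the T3 array of Kcnd3 at 24 h was near that at 16 h. The 3 other probe-sets of Kcnd3, all below the filter, differed at 24 h by -0.89, 0.28 and 0.55.

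Kcnk2, a leak channel opened by stretch and lipids, had 112.3, 78.8, 113.6 and 86.5 with T3 and 119.3, 73.1, 263.3 and 69.4 untreated, so that the untreated 24 h array was again the highest (-1.21). Kcnab1, a cytoplasmic beta subunit of Kcna channels, differed by -1.31. Kcnq5, a pore subunit of the slow M-current, had 62.0 with T3 and 124.2 untreated. Of Kcnq5, another probe-set at the filter differed by 0.77 at 24 h, in the opposite direction. The 3 higher members at 24 h were Kcnj11, the pore of ATP-sensitive channels (78.2 with T3 and 27.5 untreated, 1.51), Kcne4 (1.22) and Kcnt2, a channel opened by sodium and not calcium (106.4 and 47.7, 1.16). With 32 added to every signal, the differences beyond 2-fold were those of Kcnmb4 (-1.77), Kcnd3 (-1.59) and Kcnk2 (-1.02), and Kcnd2 lay at -0.96.

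**Figure D2:**
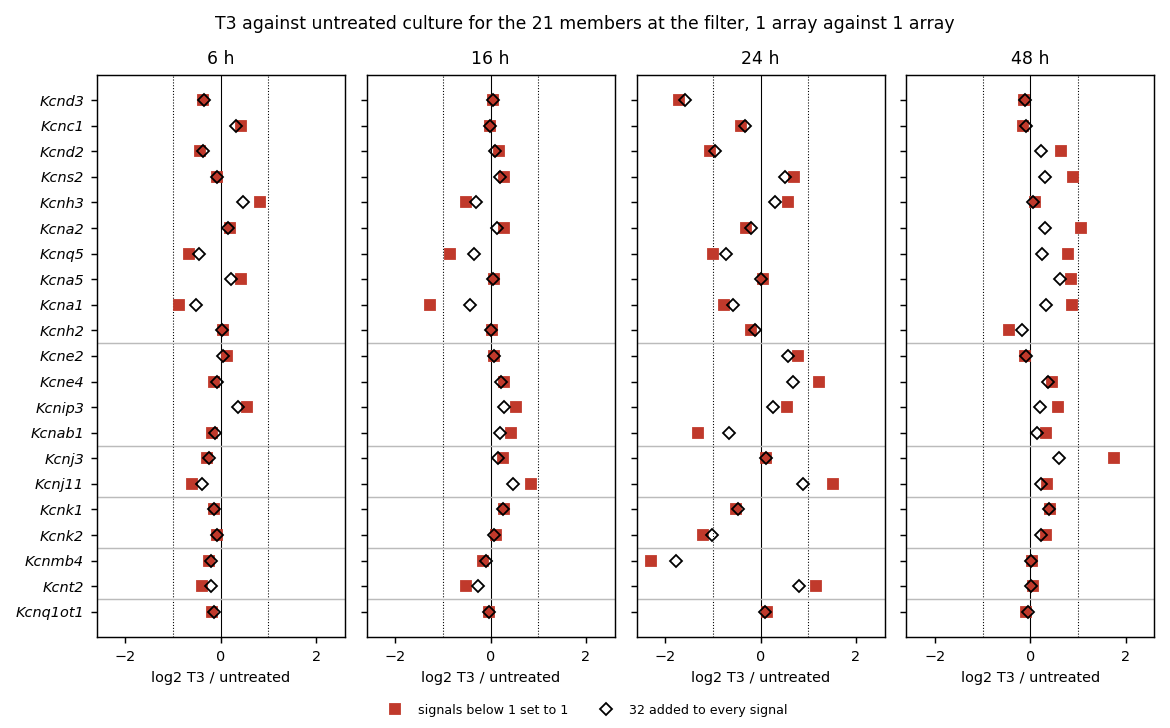
Log2 ratio of T3 to untreated signal at each time point (panels, 6 to 48 h) for the 21 members at the filter, by class down the y axis, with 1 array against 1 array and no error. Red squares use signals floored at 1, open diamonds have 32 added to every signal, and dotted lines mark 2-fold: at 24 h Kcnmb4, Kcnd3 and Kcnk2 lie beyond it on the lower side with both.

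Channel partners that are no members were read in the same way. Of 26 fixed genes 20 had a probe-set and 10 reached the filter, and 0 were called by limma for T3 or for the hours. At 24 h 4 of the 10 were over 2-fold lower with T3 (5.16% of all kept probe-sets) and 0 higher (3.67%). They were Dpp6, the transmembrane partner of Kcnd channels (79.8 with T3 and 317.6 untreated), Adam22, a partner at Kcna complexes (102.5 and 248.3), Atp1b2, a glial sodium pump subunit (59.7 and 227.8), and Slc12a5, the neuronal potassium chloride cotransporter (26.8 and 264.9). For these too the untreated 24 h array was the highest of the 8.

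With the hours of culture more members had negative than positive slopes. A line through log2 signal against log2 hours, fitted with a term for treatment, gave negative slopes for 17 of 21 members, with a median of -0.25 per doubling against -0.03 over all kept probe-sets. By limma with Benjamini-Hochberg adjustment 3 members fell (8.56% of all kept probe-sets fell) and 0 rose (10.6%). They were Kcns2 (-1.20, SE 0.16, adjusted p = 0.00884), Kcnip3 (-0.63, SE 0.09, adjusted p = 0.0094) and Kcnd3 (-0.82, SE 0.21, adjusted p = 0.0314). All 3 had the highest signals at 6 h and the lowest at 48 h under both treatments. Neuronal markers of several kinds were also lower at 48 h than at 6 h. The summed signal of 7 granule cell precursor markers was 4425.7 with T3 and 4786.2 untreated at 6 h, and 1825.5 and 2053.6 at 48 h. Of these markers 6 were called falling, as were 3 of 6 markers of differentiated granule neurons. The GABAergic and Purkinje sum went from 574.5 with T3 and 819.1 untreated to 135.1 and 103.3, with 0 genes called. The general neuron sum went from 2893.1 and 3009.0 to 458.9 and 310.2, with 1 gene called falling. Next were Kcna2 (-0.83, adjusted p = 0.0508) and Kcnq1ot1 (-0.47, adjusted p = 0.0541), and the steepest positive slope was that of Kcne2 (1.14, adjusted p = 0.0931). For Kcnc1 the probe-sets disagreed: the brightest had a slope of -0.24 (adjusted p = 0.144), and another at the filter fell (-1.41, adjusted p = 0.0358).

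The p-values of this fit assume that T3 and untreated arrays of the same hours vary independently, which did not hold: over all kept probe-sets their correlation was 0.569. With each time point entered as a random effect Kcns2 and Kcnip3 were called, against 2.18% of all kept probe-sets, and Kcnd3 was not (adjusted p = 0.114). With the mean of each time point 0 members and 0% of all kept probe-sets were called, and the same held without the 6 h pair and without the 48 h pair. Without the 24 h pair 12 members were called, 10 falling (23.8% of all kept probe-sets fell) and 2 rising (Kcna5 and Kcne4, 19.4%), so the calls of the members moved together with those of the whole array. With no filter on signal Kcns2 and Kcnip3 fell (1.38% of 45037 probe-sets fell), Kcnd3 was not called (adjusted p = 0.086) and Kcnk5 rose (2.24%).

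**Figure D3:**
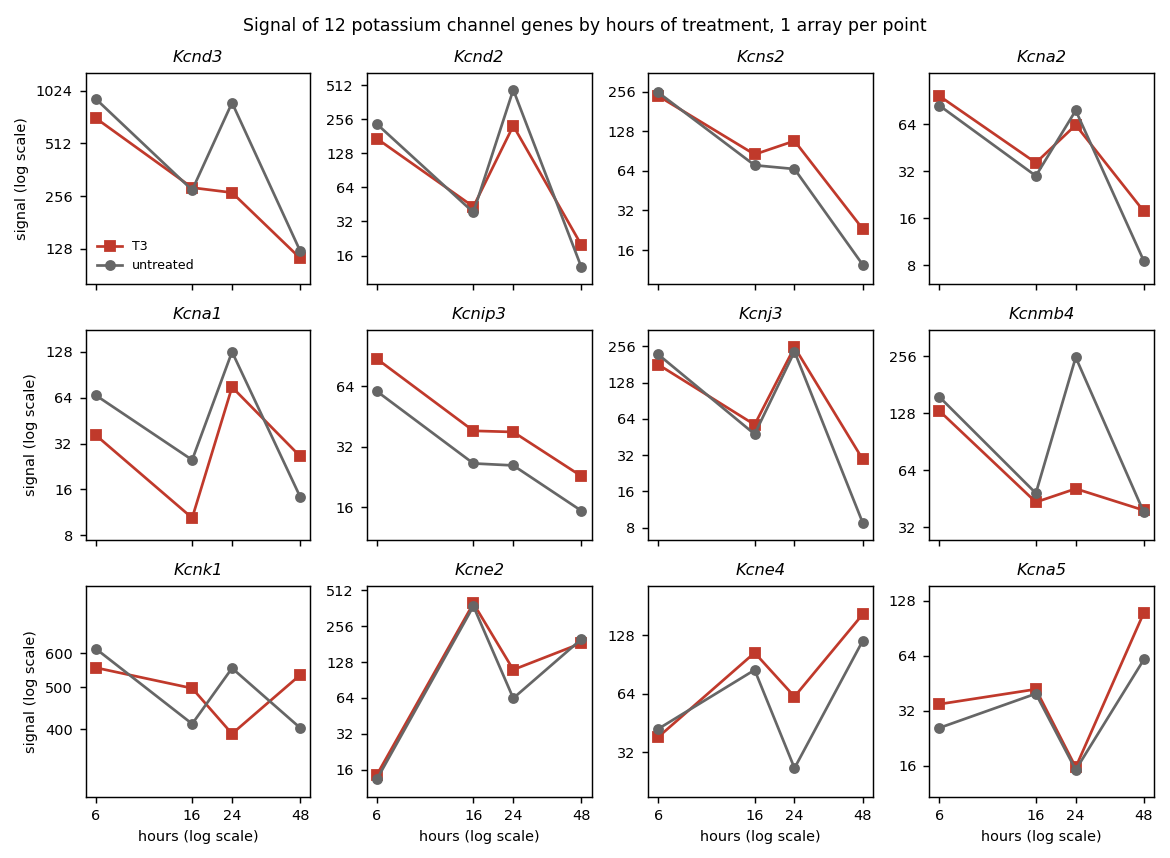
Signal (log scale) against hours (log scale) for 12 members, T3 as red squares and untreated as grey circles, 1 array per point with no error. Kcns2 and Kcnip3 are highest at 6 h and lowest at 48 h, Kcnd2, Kcna1, Kcna2 and Kcnj3 are high at 6 and 24 h, Kcnd3 and Kcnmb4 part at 24 h, and Kcne2, Kcne4 and Kcna5 run in the opposite order.

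The order of the time points was seen in the data and not planned, so it is described without a test. In 7 of 21 members every array at 6 and 24 h lay above every array at 16 and 48 h (15.1% of all kept probe-sets did), and in 3 every one lay below (14.2%). The share of the members in the first order was above that of all probe-sets and in the second about equal to it. The 7 were the pore subunits Kcnd2, Kcna1, Kcna2 and Kcnq5, with Kcnj3, Kcnk2 and Kcnmb4. The order depended on the probe-set. By another probe-set at the filter Kcnq5 did not separate, with 29.4 at 6 h and 33.5 at 16 h with T3. Kcnc1, in neither order by its brightest probe-set, had the first order by another at the filter. That probe-set had 72.2 to 137.2 at 6 and 24 h and 14.0 to 44.6 at 16 and 48 h. The difference between the 2 sets of time points was 2.75 on the T3 arrays and 3.90 on the untreated arrays for Kcnd2, and 2.38 and 3.46 for Kcnj3. Kcna1 had 36.4, 10.4, 75.2 and 26.4 with T3 and 66.5, 25.0, 128.2 and 14.3 untreated, and Kcna2, its partner in axonal channels, 97.3, 36.3, 63.4 and 17.7 with T3 and 84.5, 29.9, 78.6 and 8.5 untreated. All 4 general neuron markers had the same order. Among them Map2 had 1254.5, 503.3, 945.3 and 229.5 with T3 and 1391.3, 448.3, 1656.3 and 171.4 untreated. Whether time points share a batch of cells is not stated, so time point and batch cannot be told apart.

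The opposite order held in Kcne2, Kcne4 and Kcna5. Kcne2, an accessory subunit known from the stomach, the heart and the choroid plexus, had 14.6, 396.7, 110.4 and 184.2 with T3 and 13.4, 375.7, 63.7 and 199.1 untreated, and the 2 treatments lay close at 6, 16 and 48 h. Choroid plexus genes were looked up after these values were seen, and 5 of 6 reached the filter. Clic6 had 66.3, 545.1, 172.9 and 363.5 with T3 and 55.6, 623.5, 133.2 and 380.3 untreated, Aqp1 72.8, 598.5, 137.4 and 660.6 with T3 and 46.3, 359.8, 115.8 and 573.2 untreated, so both stood lowest at 6 h and higher at 16 and 48 h, as Kcne2 did. Folr1 was also higher at 16 and 48 h, with 359.8, 1185.9, 371.2 and 1240.2 with T3 and 183.2, 841.0, 260.0 and 988.0 untreated. Otx2 did not share the order, with 453.6, 829.1, 344.2 and 532.3 with T3 and 507.9, 705.8, 619.0 and 478.0 untreated. Ttr stayed between 3415.2 and 4477.7 on all arrays, and Kl was below the threshold throughout. The summed signal of the 6 genes was 4808.7 to 7163.5 with T3 and 4544.1 to 7028.9 untreated. Kcna5 had 34.8, 42.0, 15.7 and 110.3 with T3 and 25.8, 39.7, 15.2 and 61.1 untreated, highest at 48 h and lowest at 24 h under both treatments.

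**Figure D4:**
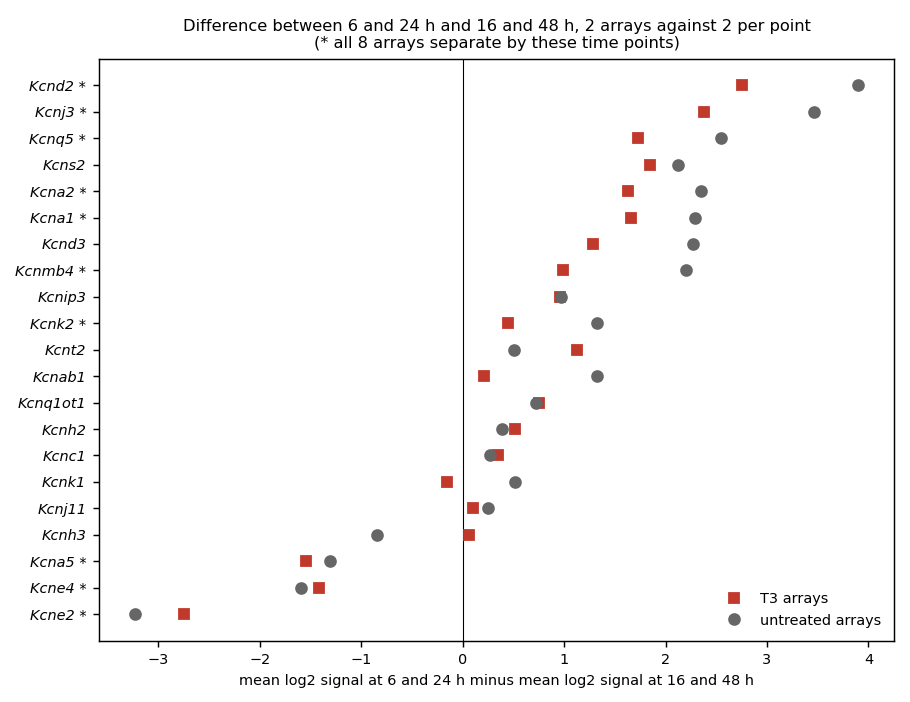
Mean log2 signal at 6 and 24 h minus that at 16 and 48 h (x axis) for the 21 members at the filter (y axis), for the 4 T3 arrays (red squares) and the 4 untreated arrays (grey circles), without error bars. Stars mark the 10 members whose arrays separate fully, 7 on the positive side, led by Kcnd2, and 3 on the negative side (Kcna5, Kcne4 and Kcne2).

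Kcnk1, a leak channel that granule neurons are known to carry, had 555.9, 497.8, 390.0 and 534.7 with T3 and 615.5, 411.3, 554.5 and 402.5 untreated. By this probe-set T3 lay below untreated at 6 and 24 h and above it at 16 and 48 h. A second probe-set at the filter had 99.4, 66.7, 79.1 and 123.6 with T3 and 98.8, 41.7, 67.8 and 68.7 untreated, higher with T3 in 4 of 4 pairs, with a fitted difference of 0.44 (SE 0.18, limma adjusted p = 0.815). The antisense RNA Kcnq1ot1 was even at 6, 16 and 24 h, with 86.8, 86.7 and 87.1 with T3 and 99.3, 89.0 and 79.4 untreated, and stood at 30.7 with T3 and 32.8 untreated at 48 h. Kcnh2, a slowly closing channel best known from the heart, and Kcnh3, of the same family, ranged between 18.7 and 45.6 and between 30.5 and 58.8.

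Kcnj10, the main inward rectifier of astrocytes and oligodendrocytes, had 29.3, 28.4, 23.7 and 24.1 with T3 and 20.6, 12.7, 121.3 and 15.5 untreated. A single array, untreated 24 h, was above the threshold, and there the astrocyte genes Gfap (25.0 with T3 and 215.9 untreated) and Aldh1l1 (73.0 and 551.7) were high as well. Of the 7 astrocyte and Bergmann glia genes at the filter 5 were over 2-fold lower with T3 at 24 h, while Gja1 had 2867.5 with T3 and 2594.7 untreated. Kcnj16, a partner of Kcnj10, stayed between 2.2 and 13.9 on all arrays. Kcnk13 (1.6 to 17.0) and Kcnn4 (1.5 to 21.7), both known from microglia, also stayed below the threshold. Of 6 microglia markers 4 reached the filter, and the summed signal of the 6 was at most 1224.5 with T3 and 935.1 untreated, both at 48 h.

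Kcnj8, the pore of the ATP-sensitive channel of pericytes and smooth muscle, had 8.7, 33.2, 12.1 and 70.1 with T3 and 3.1, 30.1, 12.4 and 36.6 untreated. Abcc9, the sulfonylurea receptor of that channel and 1 of the fixed partners, had 13.4, 46.3, 19.9 and 86.1 with T3 and 16.0, 37.4, 9.2 and 35.8 untreated. Both genes stood highest at 48 h with T3, and neither reached the filter. The pericyte gene Pdgfrb had 66.0, 269.2, 372.9 and 591.8 with T3 and 80.4, 381.9, 185.0 and 555.8 untreated. Not all vascular and meningeal markers rose in this way, and Cldn5 was about as high at 6 h as at 48 h. Another 3 members below the filter, picked out after their values were seen, passed the threshold at some time points. The two-pore channel Kcnk10 had 17.8 with T3 and 83.2 untreated at 24 h, the two-pore channel Kcnk5 had 102.7 with T3 and 87.2 untreated at 48 h, and the accessory subunit Kcne1l had 84.7 with T3 and 66.1 untreated at 6 h.

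Below the filter the class lists were long and their signals low. Of the 21 voltage-gated pore subunits below it, only Kcnh1 reached the threshold on any array (highest signal 39.0). In the calcium-activated class 0 of 9 did, including the small-conductance channels Kcnn1, Kcnn2 and Kcnn3, which cerebellar neurons are known to use (highest signal 27.6). The G protein-gated subunits Kcnj5, Kcnj6 and Kcnj9, which can join Kcnj3, were below the filter too. These probe-sets give only low signals, and a channel below the filter may still be present in the cells.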

How the data were processed

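In the deposited table every probe-set (45101 of a whole-genome mouse array) has 1 linear intensity per array, which came from GCOS and MAS5 per the submitters' processing notes and scaled by the authors to 1 mean (the trimmed mean was 100 on every array). The 64 control probe-sets were left out. After raising signals below 1 to 1, log2 was taken, and 18015 probe-sets with a mean log2 signal at or above the 60th percentile (4.95) entered the tests. Array medians were 14.8 to 17.7. With 1 array per condition, the number of arrays limits the precision.

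Fits used limma 3.58.1 in R 4.3.3 with a variance trend: T3 against untreated with the time point as a block, log2 signal on log2 hours with treatment as a covariate, and the 4 paired differences on log2 hours. Benjamini-Hochberg adjustment ran over the kept probe-sets with a threshold of 0.05, and SE is the moderated standard error. The fits were also run on simulated arrays of the same design. Those arrays shared no variation within a time point, unlike the real ones, so the run cannot test the independence that the fit over hours assumes. Pairing comes from the methods, which state a shared cell batch. Deviations of paired arrays from the mean of their treatment correlated at 0.905, 0.713, 0.520 and 0.878 from 6 to 48 h. A change over time that both treatments share also raises these correlations, so they cannot show a shared batch. P values over time measure only the spread between these arrays. Detection calls were not used.

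Members, classes, gene lists and tests were chosen with earlier results of these data known. Members were named with all signals where a fit called them, where they passed 2-fold with and without 32 added, where they had 1 of the 3 smallest p values of a fit, or where they are known markers of a cell type, and others are named as picked by their values. All 83 members matched RefSeq by gene ID. Python 3.11.15, pandas 2.3.3, numpy 2.4.6 and matplotlib 3.10.9 were used. Alternatives were other scalings, filters, thresholds, covariates and probe-set rules, and leaving out each pair.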

Additional observations from a re-analysis of the deposited data

Results flagged for a closer look

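The T3 difference of Kcnmb4 at 24 h (-2.30 on the log2 scale) lay far from its other 3 differences (-0.24, -0.16 and 0.04), with a gap of 0.879 of the range. The 4 differences of each of the 21 members were checked in this way, and chance would set apart about 1 group in 20. Kcnmb4 was the only member set apart, which is about the number that chance alone would give among 21. The untreated 24 h array, at 251.9, was the highest of the 8, and on that array the general neuron, astrocyte, oligodendrocyte and GABAergic marker sums were also the highest. The part of these markers in the difference was not tested.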

How the results depend on the processing

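Under every alternative run, 0 members were called for T3 and 0 for a T3 effect that changes with the hours. For the hours, the count of 3 members called became 5 with quantile normalization, 5 on linear hours, 1 with a filter at the 75th percentile (4 members tested), and 0 with the mean of each time point, the untreated arrays alone or the T3 arrays alone (4 arrays each), and leaving out a pair gave 0 to 12 (0 to 7786 of 18015 probe-sets). The 20, 16, 33 and 20 members beyond 2-fold at 6, 16, 24 and 48 h without a filter, against 0, 1, 9 and 2 with it, come from all 83 members, most at low signals. At 1.6-fold the counts were 2 at 6 h, 3 at 16 h and 6 at 48 h. At 3-fold they were 0 at 16 h, 2 at 24 h and 1 at 48 h. With 32 added they were 0 at 16 h, 3 at 24 h and 0 at 48 h, and at the 75th percentile 0, 2 and 0. The mean of all probe-sets gave 0 at 16 h and, at 24 h, 4 higher and 2 lower in place of 3 higher and 6 lower, and quantile normalization 1 at 48 h. Members at the filter numbered 4 at the 75th percentile, 5 with the threshold met on every array and 8 by the mean of all probe-sets. No difference beyond 2-fold and no called slope changed its sign, whereas the 48 h differences of Kcnmb4 (0.04) and Kcnt2 (0.05) were -0.02 and -0.06 after quantile normalization. No paired analysis by replicate number was possible because each group has 1 array, and pairs were taken by time point.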
